A study of Mus musculus with 2 samples.

Results

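The Pax genes encode transcription factors that bind DNA through the paired domain, and the 8 family members measured here were Pax1, Pax2, Pax3, Pax5, Pax6, Pax7, Pax8 and Pax9. They were chosen by symbol, and each matched 1 row among the 32285 genes of both feature lists. Whole embryos of the mouse had been taken at embryonic day 9.5, dissociated and sequenced as single cells in 2 libraries. One library was labelled WT (wild-type) and the other Usb1 knockout (Usb1-null, a germline loss of the nuclease that shortens the tail of U6 snRNA, a part of the spliceosome). Cells were barcoded with the 10x Genomics 3′ v3.1 chemistry, so each value below is a count of unique molecular identifiers (UMIs), read near the 3′ end of a transcript and scaled to 1000000 UMIs of the same library or cluster (CPM).

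Pax factors are known for setting up regions and cell fates in the embryo. Pax1 and Pax9 act in the sclerotome, the part of the somite that forms vertebrae, and in the pharyngeal pouches. Pax2, Pax5 and Pax8 act at the boundary of midbrain and hindbrain, and Pax2 and Pax8 also in the kidney precursor and the inner ear. Pax3 and Pax7 act in the dorsal neural tube, the neural crest and the dermomyotome, from which skeletal muscle arises. Pax6 acts in the eye, the forebrain and the ventricular zone of the spinal cord.

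Because each genotype was 1 library, no test between genotypes was possible, and no p-value or standard error is given. All intervals are exact 95% intervals that cover counting error alone, and the spread between embryos is unknown. The sources used here do not say how many embryos went into each suspension, nor the strain. The wild-type library kept 15161 cells with a median of 1243 UMIs and the Usb1-null library 13018 cells with a median of 2299.5 UMIs. Shares of cells with a UMI are therefore also given after drawing 800 UMIs from each cell. The wild-type library held 53276 UMIs of Xist and 14 of Y-linked genes, and the Usb1-null library 26 and 23463, so genotype and sex cannot be told apart in any comparison below. Usb1 itself had 68 UMIs (3.13 CPM, 2.43–3.97) in the wild-type and 47 (1.41 CPM, 1.03–1.87) in the Usb1-null library. The deletion lies at the start of the gene, so a 3′ count is no check of the label. The libraries shared 61 cell barcodes, and 6.76% of wild-type and 4.30% of Usb1-null cells were called doublets.

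All 8 genes share the paired box, the coding stretch of the DNA-binding domain. A run of 60 coding bases near the start of each box is printed to show how alike the members are, in the order of the 4 subgroups used below. The run was found by an amino acid motif present in all 8 genes, so part of its likeness follows from that choice. Over the run alone the subgroups did not separate, since Pax6 and Pax7 shared 48 of 60 bases, beside 47 for Pax3 and Pax7. The bases were read from the GENCODE M21 transcripts of GRCm38, and capitals mark the 28 of 60 that were identical in all 8 genes.
Pax1: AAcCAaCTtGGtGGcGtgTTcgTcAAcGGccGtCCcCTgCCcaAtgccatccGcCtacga
Pax9: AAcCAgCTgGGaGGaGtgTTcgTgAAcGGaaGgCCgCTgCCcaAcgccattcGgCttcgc
Pax2: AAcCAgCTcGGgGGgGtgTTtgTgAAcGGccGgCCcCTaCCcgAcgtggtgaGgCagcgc
Pax5: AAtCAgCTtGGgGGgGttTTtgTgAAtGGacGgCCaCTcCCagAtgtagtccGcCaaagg
Pax8: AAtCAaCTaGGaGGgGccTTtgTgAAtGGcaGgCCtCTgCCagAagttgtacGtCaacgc
Pax3: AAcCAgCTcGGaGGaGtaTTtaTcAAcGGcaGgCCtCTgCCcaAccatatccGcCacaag
Pax7: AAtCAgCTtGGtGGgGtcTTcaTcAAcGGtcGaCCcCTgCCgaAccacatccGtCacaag
Pax6: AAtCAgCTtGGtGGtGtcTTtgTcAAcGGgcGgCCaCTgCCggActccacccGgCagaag

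Over the box, taken as 360 coding bases from the start of the printed run, Pax1 and Pax9 were 81.4% identical and Pax3 and Pax7 80.5%, the latter over 354 aligned bases with 12 gap columns. Identities were 81.9% for Pax2 and Pax8, 80.3% for Pax2 and Pax5 and 80.0% for Pax5 and Pax8, which form another subgroup. The 23 other pairs lay between 62.3% and 69.8%, and Pax6 stood alone. Pairs with Pax6, whose transcript carried an insert, rest on 318 aligned bases. The Pax1 stretch lies in exon 2 on the plus strand at chr2:147365753-147365812, that of Pax9 in exon 3 on the plus strand at chr12:56696594-56696653, and that of Pax2 in exon 2 on the plus strand at chr19:44760892-44760951. Pax5 has its stretch in exon 2 on the minus strand at chr4:44697614-44697673 and Pax8 in exon 3 on the minus strand at chr2:24444658-24444717. Those of Pax3 and Pax7 lie in exon 2 on the minus strand, at chr1:78195398-78195457 and chr4:139830285-139830344, and that of Pax6 in exon 4 on the plus strand at chr2:105683842-105683901. Since the assay reads near the 3′ end, these coding stretches were not themselves what was counted.

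Over whole libraries, Pax8 was the 1 member that passed a difference of 1.5-fold, on a log2 scale with 1 CPM added. It was higher in the Usb1-null library, where 5.68% of the 18921 genes counted were higher by this measure and 3.64% lower. None of the 8 was lower by 1.5-fold. The median log2 ratio of the 8 was -0.10, beside 0.01 over all genes counted.

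**Figure D1:**
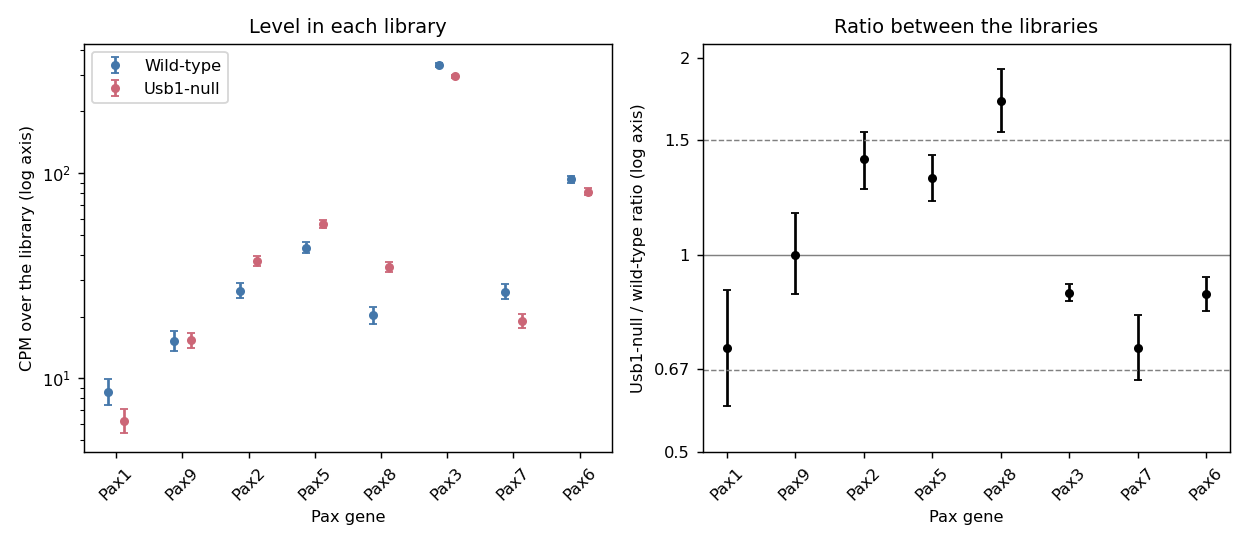
Level of each Pax gene in the wild-type and the Usb1-null library (left, CPM on a log axis) and the ratio between them (right, log axis). Bars are 95% counting intervals, and dashed lines mark 1.5-fold in either direction. Pax2, Pax5 and Pax8 lie above 1, with Pax8 at 1.72, and Pax1, Pax3, Pax6 and Pax7 below 1.

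All 3 genes of the Pax2, Pax5 and Pax8 subgroup were counted at a higher level in the Usb1-null library. Pax2 stood at 26.7 CPM (24.6–29.0) in the wild-type and 37.3 CPM (35.2–39.4) in the Usb1-null library, a ratio of 1.40 (1.26–1.54). Pax5 stood at 43.3 CPM and 56.7 CPM, a ratio of 1.31 (1.21–1.42). Pax8 stood at 20.3 CPM (18.4–22.3) and 34.9 CPM (32.9–36.9), a ratio of 1.72 (1.54–1.92). None of these intervals held 1. Fewer cells of a type and fewer transcripts per cell cannot be told apart from whole-library totals, so the cluster shares were also set equal. With the cells of the Usb1-null library weighted to the cluster shares of the wild-type, the log2 ratios were 0.38 for Pax2, 0.30 for Pax5 and 0.67 for Pax8, beside 0.47, 0.38 and 0.75 without weighting.

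Pax6 and the genes of the somite and the dorsal neural tube went the other way or did not differ beyond counting error. Pax1 stood at 8.60 CPM in the wild-type and 6.20 CPM in the Usb1-null library, a ratio of 0.721 (0.588–0.883). Its closest relative Pax9 stood at 15.2 CPM and 15.3 CPM, a ratio of 1.00 (0.872–1.16). The interval of Pax9 thus held 1, and that of Pax1 did not. Pax3, the member with most UMIs, stood at 338 CPM and 296 CPM, a ratio of 0.876 (0.850–0.903). Pax7 stood at 26.4 CPM and 19.1 CPM, a ratio of 0.722 (0.644–0.810). Pax6 stood at 93.1 CPM and 81.1 CPM, a ratio of 0.871 (0.822–0.924). These 3 intervals lay below 1, though all 3 ratios were within 1.5-fold. After the same weighting the log2 ratios were -0.39 for Pax1, -0.01 for Pax9, -0.21 for Pax3, -0.50 for Pax7 and -0.19 for Pax6, and each stayed within its counting interval.

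The same genes were found in few cells, apart from Pax3 and Pax6. Of all cells, 5177 (34.1%) in the wild-type and 5832 (44.8%) in the Usb1-null library held at least 1 UMI of any member. Pax3 was found in 20.2% and 25.7% of cells as deposited, and in 15.7% (1959 of 12472) and 14.6% (1854 of 12714) at 800 UMIs per cell. The higher share of the Usb1-null library was thus not seen at equal depth. For Pax8 the share was 2.02% and 5.22% as deposited and 1.32% (1.13–1.54) and 2.21% (1.96–2.48) at equal depth, so it stayed higher. Pax2 did likewise, with 2.45% and 5.19% as deposited and 1.66% (1.44–1.90) and 2.28% (2.03–2.56) at equal depth. Drawing to 800 UMIs left out 2689 wild-type cells (17.7%) and 304 Usb1-null cells (2.34%).

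Cells were grouped into 29 clusters without using any Pax gene, and 21 of them were named by marker genes that also contained no Pax gene. Names end in "-like", and 26 clusters had at least 100 cells in each library. Primitive erythroid-like cells, which are not known to use Pax genes, were used as a measure of background, to which free RNA in the droplets and doublets can add. Pax3 stood at 117 CPM there in the wild-type and at 49.6 CPM in the Usb1-null library, with a UMI in 6.86% and 6.81% of cells. The other members stood between 0 and 39.9 CPM in these cells, on 0 to 28 UMIs per library. Not every member was lower there in the Usb1-null library, since Pax5 stood at 22.8 CPM and 29.7 CPM. The erythroid-like cells numbered 598 and 191 and had medians of 838 and 1723 UMIs. Of the other 25 clusters, those whose interval lay above this level in both libraries numbered 1 for Pax1, 3 for Pax9, 4 each for Pax2, Pax5 and Pax8, 12 for Pax3, 5 for Pax7 and 8 for Pax6.

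**Figure D2:**
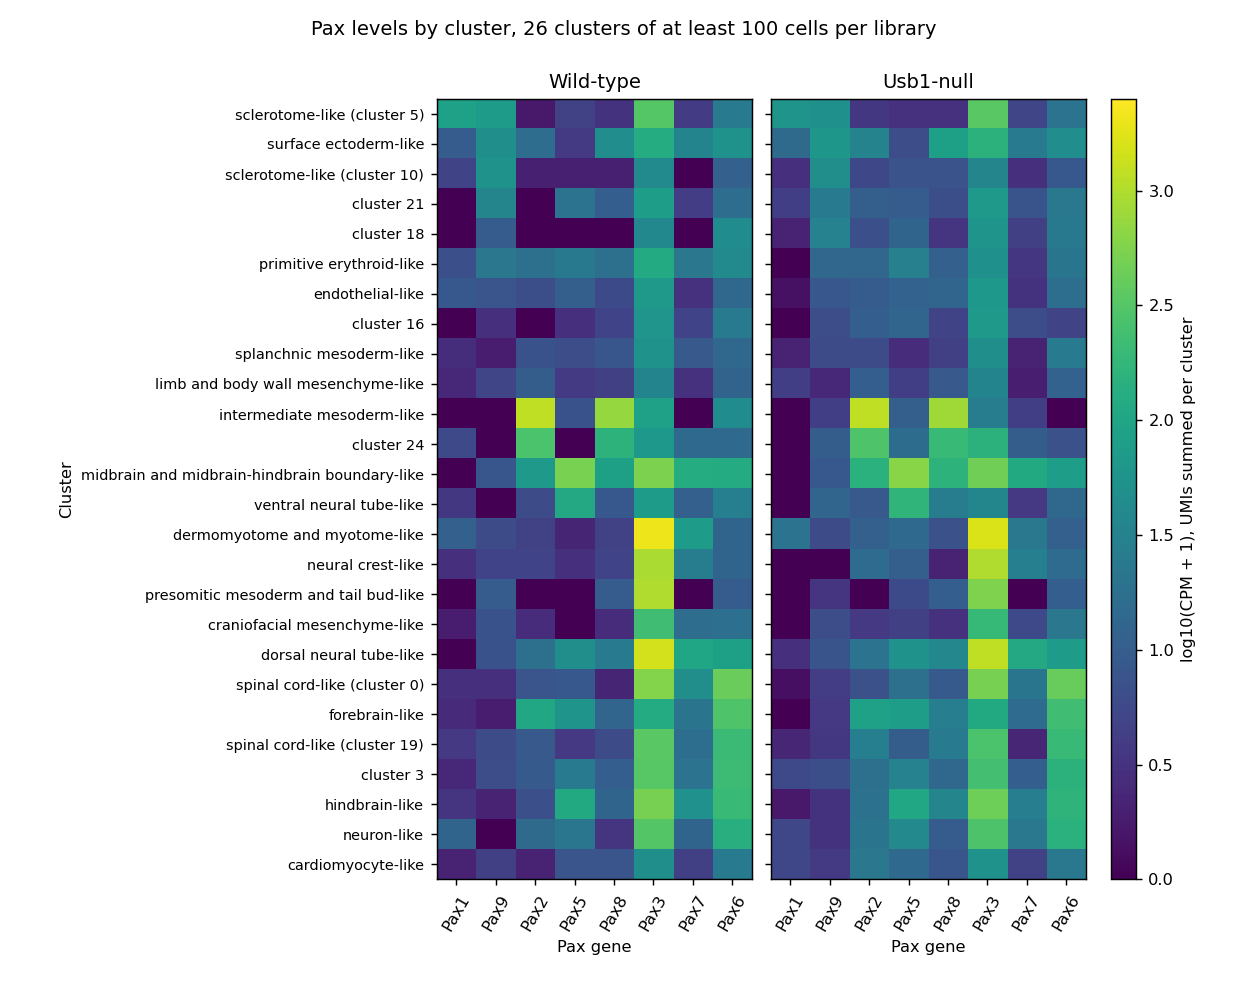
Level of the 8 Pax genes in 26 clusters of the wild-type (left) and the Usb1-null library (right), as log10(CPM + 1) of UMIs summed per cluster. Bright cells include Pax2 and Pax8 in the intermediate mesoderm-like cluster, Pax5 in the midbrain and midbrain-hindbrain boundary-like cluster and Pax3 in the dermomyotome, dorsal neural tube and neural crest-like clusters, in the same rows of both panels.

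Pax1 was held by 1 cluster above the erythroid-like level, the sclerotome-like cluster 5, where Meox1 and Uncx were among the leading genes. It stood there at 86.6 CPM (71.9–104) in the wild-type and 55.8 CPM (45.8–67.2) in the Usb1-null library, and this cluster gave 64.7% and 53.1% of its UMIs. Next by the mean of both libraries came the dermomyotome and myotome-like cluster, at 10.0 CPM and 18.7 CPM, and the surface ectoderm-like cluster, at 8.85 CPM and 14.1 CPM. These 2 overlapped each other but not the sclerotome-like cluster. The surface ectoderm-like cluster also had 4 raised endoderm markers, but Epcam and Cldn6 among them are in its own marker list too. Pharyngeal epithelium among its cells was not tested.

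Pax9 was spread over 3 clusters at levels that overlapped in both libraries. These were the sclerotome-like cluster 5 at 72.3 CPM and 49.2 CPM, the surface ectoderm-like cluster at 48.1 CPM and 61.3 CPM, and the sclerotome-like cluster 10 at 54.4 CPM and 47.3 CPM. With another random seed, with a coarser clustering and with doublets removed, the cluster that led for Pax9 held none of the cells of cluster 5. The name of cluster 10 rests on 3 raised markers, none of them among its leading genes. Pax1 did not exceed the erythroid-like level there. Cluster 18, which has no name and is led by genes such as Tlx1 and Tbx1, held 4 UMIs of Pax9 in the wild-type (8.73 CPM) and 27 in the Usb1-null library (30.8 CPM).

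Pax2 and Pax8 had the same 3 leading clusters when ranked by the mean of both libraries. In the intermediate mesoderm-like cluster, marked by Lhx1, Osr1 and Wt1, Pax2 stood at 1183 CPM (1021–1363) in the wild-type and 1191 CPM (1072–1319.9) in the Usb1-null library. Pax8 stood in the same cluster at 718 CPM (594–862) and 825 CPM (726–933). The cluster is small, with 111 and 110 cells, and 70.3% and 84.5% of them held a UMI of Pax2. In 5 other clusterings the matching cluster, of 89 to 111 cells per library, held Pax2 at 1177 to 1408 CPM and Pax8 at 722 to 886 CPM. Cluster 24 came next, at 269 CPM and 289 CPM for Pax2 and at 155 CPM and 195 CPM for Pax8. It kept its number because Lmx1a, a neural tube marker, was among its leading genes, although markers of otic and placodal ectoderm, such as Hmx3, Eya1 and Dlx5, were raised. The midbrain and midbrain-hindbrain boundary-like cluster followed, and there both genes differed between the libraries. This cluster is called the boundary-like cluster below, though its marker list covers the midbrain too. In wild-type cells alone, Pax2 was higher in the forebrain-like cluster, at 106 CPM, than in the boundary-like cluster, at 66.3 CPM.

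Pax5 was the member most tied to the boundary-like cluster. The midbrain and midbrain-hindbrain boundary-like cluster, where En1, En2 and Cnpy1 were leading genes, gave 62.6% of its UMIs in the wild-type and 60.9% in the Usb1-null library. Its level there was 522 CPM (480–566) and 620 CPM (584–657), and 37.5% and 58.4% of the cells held a UMI. Its highest mean over both libraries, 571 CPM here, was 323 CPM with a coarser clustering and 956 CPM when the Pax genes were not left out of the clustering. The ventral neural tube-like cluster followed at 110 CPM and 166 CPM, the hindbrain-like at 114 CPM and 107 CPM and the forebrain-like at 56.5 CPM and 79.9 CPM. None of these 3 came near the level in the boundary-like cluster. The intermediate mesoderm-like cluster, led by its relatives, was not among the clusters above the erythroid-like level for Pax5.

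Pax3 had the widest spread, since 9 clusters were needed to reach 80% of its UMIs in each library. It led in the dermomyotome and myotome-like cluster, at 2050 CPM (1952–2152) in the wild-type and 1598 CPM (1526–1672) in the Usb1-null library. This leading place depended on the clustering, since with another random seed the cluster that led shared none of these cells (1339 CPM, mean of both libraries) and with fewer clusters the highest mean was 864 CPM, beside 1824 CPM here. The dorsal neural tube-like cluster followed at 1462 CPM and 1204 CPM, and the neural crest-like cluster at 918 CPM and 980 CPM. The presomitic mesoderm and tail bud-like cluster stood at 997 CPM in the wild-type, a level whose interval overlapped that of the neural crest, and at 545 CPM in the Usb1-null library, where it did not. A UMI was found in 79.8% and 84.5% of dermomyotome-like cells, and at the low end in 3.28% and 6.52% of limb and body wall mesenchyme-like cells, below the share in erythroid-like cells of each library.

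Pax7 was placed in a subset of the clusters of Pax3. Its level was 126 CPM (107–149) and 115 CPM (99.7–131) in the midbrain and midbrain-hindbrain boundary-like cluster and 103 CPM and 112 CPM in the dorsal neural tube-like cluster, and the intervals of these 2 overlapped in both libraries. With a coarser clustering its highest mean went from 121 CPM to 65.1 CPM. By the mean of both libraries, the dermomyotome and myotome-like cluster came next, at 72.6 CPM and 22.1 CPM. It overlapped the dorsal neural tube in the wild-type library and lay below it in the Usb1-null library. All 5 clusters in which Pax7 exceeded the erythroid-like level were among the 12 for Pax3.

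Pax6 was a gene of the neural tube in these data. The spinal cord-like cluster 0 led at 421 CPM (390–454) and 402 CPM (378–428), and held 33.1% and 37.6% of its UMIs. The forebrain-like cluster followed at 287 CPM and 227 CPM, and the smaller spinal cord-like cluster 19 at 208 CPM and 199 CPM. Of the 8 clusters above the erythroid-like level, 7 had a neural name and the eighth was the shallow cluster 3, in which markers of hindbrain and spinal cord were tied. The levels in the dorsal neural tube-like cluster, 84.5 CPM and 74.2 CPM, were the lowest of the 8.

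Levels across the 26 clusters were also compared with those of other genes, by Pearson's r of the log level in each library. The clusters share a library, depth and free RNA, so these values are descriptions, and 13318 genes with at least 200 UMIs entered. Pax2 and Pax8 were among the 3 genes most like each other, with r of 0.81 in the wild-type and 0.84 in the Usb1-null library. The gene most like both was Gm13415, at 0.89 and 0.93 for Pax8. Gm13415 overlaps Pax8 on the opposite strand (GRCm38 chr2:24440418-24475599), and the sources used here do not state whether the counting used strand, so its counts and those of Pax8 are uncertain. Gm13415 had a ratio of 2.19 (1.69–2.87) between the libraries. Pax6os1 overlaps Pax6 on the opposite strand in the same way (chr2:105668900-105670330) and had a ratio of 1.80 (1.41–2.31), so counts of Pax6 carry that doubt too. For Pax6 the 3 most alike were Mir124-2hg, Sox1, a factor of neural progenitors, and Ptprn2, with r from 0.84 to 0.90. For Pax3 they were Boc, a receptor of the hedgehog pathway, Lrig1 and Dclk2, at 0.73 to 0.76. Agmo was most like Pax1 (0.71 and 0.62), Frmpd4 most like Pax9 (0.59 and 0.55), Gm32061 most like Pax5 (0.80 and 0.78) and Cdh10 most like Pax7 (0.81 and 0.69). Between other pairs of the family, Pax3 and Pax7 had r of 0.61 and 0.63 and Pax5 and Pax7 of 0.50 and 0.60, while Pax1 and Pax9 reached 0.27 and 0.42.

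Within clusters, 83 pairs of a Pax gene and a cluster held at least 30 UMIs over both libraries. Of these, 17 were higher and 10 lower by 1.5-fold in the Usb1-null library. Over all genes counted in the same way, 7.82% of pairs were higher and 9.39% lower. The intervals of 16 of the 83 pairs lay above 1 and those of 17 below, a count not made over all genes. Both higher pairs of Pax1 had intervals that held 1. The 17 higher pairs comprised 5 of 8 for Pax8, 4 of 9 for Pax2, 2 of 8 for Pax5, 2 of 3 for Pax1, 2 of 25 for Pax3 and 1 each for Pax9 and Pax6. The 10 lower pairs comprised 3 each for Pax7, Pax3 and Pax6 and 1 for Pax1. Among the 41 pairs above the erythroid-like level in both libraries, 4 were higher and 6 lower, and 6 intervals lay above 1 and 14 below. Over all genes 2.93% of the pairs chosen in that way were higher and 6.07% lower. Most of the higher pairs therefore did not exceed the erythroid-like level in both libraries, among them Pax2 in the cardiomyocyte-like cluster, with 1 and 30 UMIs, and Pax2 and Pax8 in the hindbrain-like cluster, at ratios of 3.12 (1.17–10.4) and 2.93 (1.46–6.51).

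**Figure D3:**
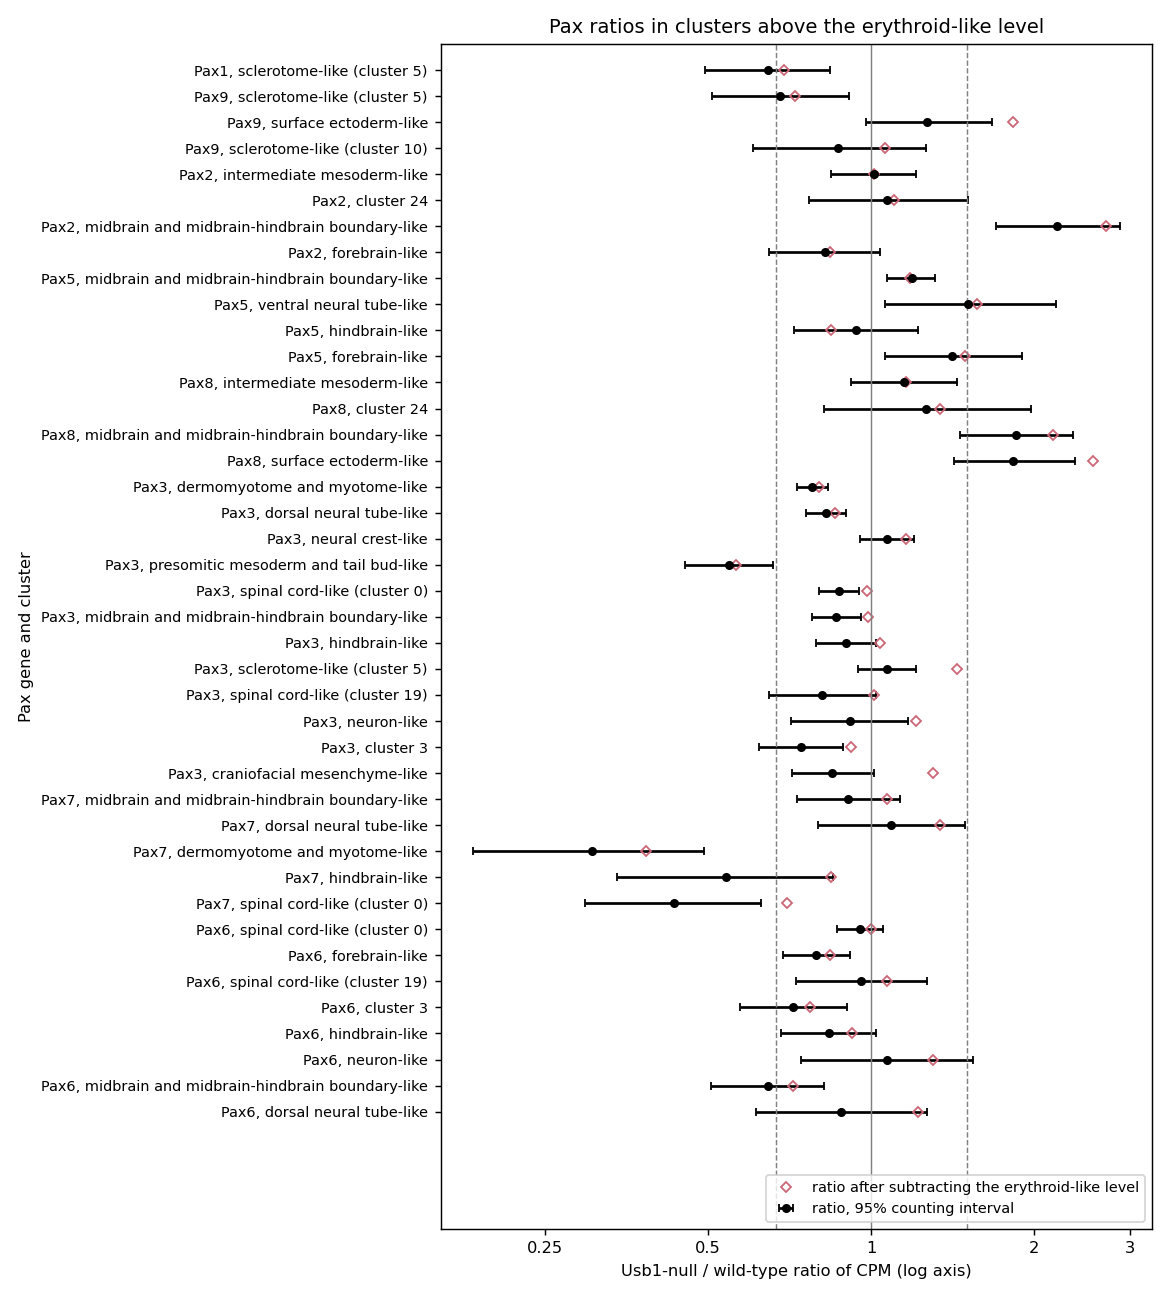
Ratio of Usb1-null to wild-type CPM (log axis) for the 41 pairs of a Pax gene and a cluster that lay above the erythroid-like level in both libraries. Black points carry 95% counting intervals, open diamonds show the ratio after the erythroid-like level of each library was subtracted, and dashed lines mark 1.5-fold. Pax2 and Pax8 in the midbrain and midbrain-hindbrain boundary-like cluster lie to the right, and Pax7 and Pax3 in the dermomyotome and presomitic mesoderm to the left.

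The 4 higher pairs above the erythroid-like level lay in the midbrain and midbrain-hindbrain boundary-like, the surface ectoderm-like and the ventral neural tube-like clusters. In the boundary-like cluster, Pax2 went from 66.3 CPM (52.2–83.1) in the wild-type to 146 CPM (129–164) in the Usb1-null library, a ratio of 2.20 (1.70–2.88). Pax8 went there from 84.9 CPM (68.8–104) to 157 CPM (140–176), a ratio of 1.85 (1.46–2.36). The ratio of Pax5 in the same cells was smaller, at 1.19 (1.07–1.31). In the surface ectoderm-like cluster, Pax8 had 45.9 CPM and 83.9 CPM, a ratio of 1.83 (1.42–2.38), and Pax2, which did not exceed the erythroid-like level there, 15.5 CPM and 32.4 CPM. In the intermediate mesoderm-like cluster the ratios were 1.01 (0.843–1.21) for Pax2 and 1.15 (0.918–1.44) for Pax8. The kidney precursor thus gave intervals that held 1 and did not reach 1.5. Pax5 in the ventral neural tube-like cluster was the fourth higher pair, at 1.51 (1.06–2.19).

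The 6 lower pairs above the erythroid-like level lay in the somite, the tail and the neural tube. Pax7 in the dermomyotome and myotome-like cluster had 58 UMIs in the wild-type and 26 in the Usb1-null library, a ratio of 0.305 (0.184–0.492). Pax3 in the same cluster had a ratio of 0.779 (0.729–0.833), within 1.5-fold. Pax3 in the presomitic mesoderm and tail bud-like cluster had 227 and 230 UMIs, a ratio of 0.547 (0.453–0.660). Pax1 in the sclerotome-like cluster 5 had a ratio of 0.644 (0.493–0.840), and Pax9 in the same cells one of 0.680 (0.509–0.908), just within 1.5-fold. Pax7 was lower in the spinal cord-like cluster 0, at 0.432 (0.296–0.626), and in the hindbrain-like cluster, at 0.539 (0.340–0.851). Pax6 in the midbrain and midbrain-hindbrain boundary-like cluster was lower too, at 0.644 (0.506–0.819).

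The level in erythroid-like cells moved with these lower values, since Pax7 had 21.4 CPM there in the wild-type and 2.48 CPM in the Usb1-null library. These levels rest on 15 and 1 UMIs, those of Pax1 on 4 and 0 and those of Pax9 on 15 and 5. The subtracted ratios therefore depend on few counts, and no interval was computed for them. After the erythroid-like level was subtracted, 2 of the 6 lower pairs remained past 1.5-fold. These were Pax7 in the dermomyotome and myotome-like cluster, at 0.384, and Pax3 in the presomitic mesoderm and tail bud-like cluster, at 0.563. Pax7 came to 0.700 in the spinal cord-like cluster 0 and 0.843 in the hindbrain-like cluster. Pax1 came to 0.689 in the sclerotome-like cluster 5 and Pax6 to 0.716 in the boundary-like cluster. The 4 higher pairs remained higher, with Pax2 at 2.71 and Pax8 at 2.17 in the boundary-like cluster. Pax8 came to 2.57 in the surface ectoderm and Pax5 to 1.57 in the ventral neural tube. Pax9 in the surface ectoderm joined the higher pairs at 1.83.

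Cells that held UMIs of more than 1 Pax gene were counted next. In the wild-type library 996 cells held 2 members, 174 held 3, 22 held 4 and 3 held 5. In the deeper Usb1-null library 1384 cells held 2, 374 held 3, 80 held 4, 27 held 5 and 1 held 6. To set depth and cluster apart from pairing, the UMIs of a second gene in cells with the first were divided by the number expected from cells of the same cluster and library without the first, in proportion to their UMIs. Values above 1 mean that both were found in the same cells more often than the cluster alone gives. Clusters can hold several cell types, and a doublet can join them, but of 39 such ratios, including those for other genes below, recomputed without the called doublets, 38 stayed within counting error. With a coarser clustering 20 did, 18 moved beyond it and 1 changed direction.

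**Figure D4:**
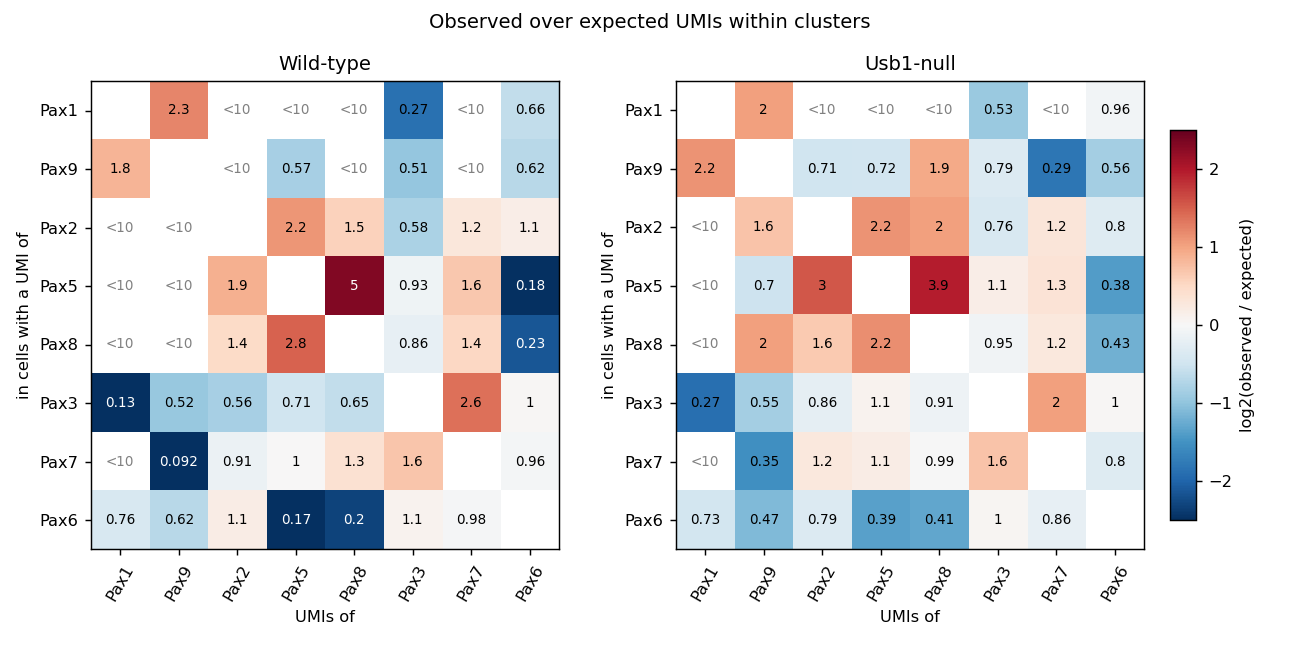
Observed over expected UMIs of each Pax gene (columns) in cells with a UMI of another (rows) in the wild-type (left) and the Usb1-null library (right), coloured as log2. Entries with fewer than 10 expected UMIs are marked and left white. Red entries include all those within the subgroups Pax1 and Pax9, Pax2, Pax5 and Pax8, and Pax3 and Pax7 with at least 10 expected UMIs, and also others such as Pax7 in Pax5 cells. Blue entries include those between Pax6 and Pax5 or Pax8 and between Pax3 and Pax1, and Pax9 in Pax7 cells.

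Pairs from one subgroup were found together. Pax5 cells held 105 UMIs of Pax8 in the wild-type against 21.1 expected, a ratio of 4.98 (4.07–6.02), and 375 in the Usb1-null library against 96.2, a ratio of 3.90 (3.52–4.32). Their UMIs of Pax2 were 1.86 (1.44–2.37) and 2.95 (2.64–3.28) times the expected number. Pax2 cells held Pax8 at 1.5 (1.27–1.77) and 2.04 (1.86–2.22) times. In cells, Pax2 and Pax8 were both found in 80 and 223, of which 44 and 69 were intermediate mesoderm-like and 18 and 77 boundary-like. Pax5 and Pax8 were both found in 76 and 225 cells, and 54 and 142 of these were boundary-like. At 800 UMIs per cell, 20.6% (14.7–27.6) of wild-type and 21.4% (16.7–26.6) of Usb1-null Pax8 cells also held Pax2. These intervals overlapped, and so did those for Pax5 in Pax8 cells, at 18.8% and 16.4%. The shares depended on the depth drawn. At 500 UMIs per cell they were 12.1% and 23.0% for Pax2 and 10.6% and 13.5% for Pax5.

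As deposited, most Pax7 cells also held Pax3, whereas few Pax3 cells held Pax7. Over whole libraries Pax3 stood at 338 CPM and 296 CPM and Pax7 at 26.4 CPM and 19.1 CPM. The part of these levels in the asymmetry was not tested. Of Pax7 cells, 316 (68.7%) in the wild-type and 369 (73.2%) in the Usb1-null library also held Pax3, and of Pax3 cells 10.3% and 11.0% held Pax7. In Pax3 cells, UMIs of Pax7 were 2.61 (2.37–2.88) and 2.04 (1.86–2.23) times the expected number. At 800 UMIs per cell the share of Pax7 cells with Pax3 was 57.5% (50.4–64.3) and 38.5% (31.2–46.2). A second random draw gave 48.9% in the Usb1-null library, beyond that interval, so this gap between the libraries depended on the draw. Pax1 and Pax9 were found together in 25 and 27 cells, of which 15 and 13 were in the sclerotome-like cluster 5 and 6 and 12 in the surface ectoderm. Pax1 cells held Pax9 at 2.32 (1.60–3.26) and 2.04 (1.44–2.80) times the expected number.

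Across the subgroups, Pax1 cells held 10 and 27 UMIs of Pax8, which was 5.08 (2.44–9.34) and 2.81 (1.85–4.09) times the expected number, though fewer than 10 UMIs were expected in each library. Pax8 cells held Pax1 at 2.73 (1.00–5.95) and 2.21 (1.24–3.65) times, again with fewer than 10 expected. Pax2 cells held Pax9 at 2.78 (1.52–4.66) and 1.65 (1.15–2.28) times, with 5.04 UMIs expected in the wild-type, but Pax9 cells held Pax2 at 2.25 (1.08–4.14) and 0.709 (0.427–1.11) times. Pax5 cells held Pax7 at 1.59 (1.30–1.93) and 1.26 (1.09–1.45) times, whereas Pax7 cells held Pax5 at 1.01 (0.848–1.20) and 1.13 (1.02–1.25) times. For Pax2 and Pax9 the intervals of both directions lay above 1 in the wild-type library alone, and for Pax5 and Pax7 in the Usb1-null library alone. Pax9 cells held Pax8 at 1.28 (0.638–2.29) and 1.93 (1.51–2.42) times, so the interval lay above 1 in the Usb1-null library only. They shared 7 and 40 cells, and 29 of the latter were surface ectoderm-like.

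Other pairs were found together less often than their clusters gave. Pax5 cells held 30 UMIs of Pax6 in the wild-type against 168 expected, a ratio of 0.178 (0.120–0.255), and 149 in the Usb1-null library against 394, a ratio of 0.379 (0.320–0.445). Pax8 cells held Pax6 at 0.228 (0.114–0.408) and 0.433 (0.340–0.544) times. Pax1 cells held Pax3 at 0.273 (0.182–0.395) and 0.528 (0.436–0.633) times, and Pax9 cells at 0.514 and 0.791 times. In each of these 4 pairs the ratio lay below 1 in both libraries and nearer to 1 in the Usb1-null library, which is also the deeper one, and the part of depth was not tested. Pax9 cells held Pax6 at 0.617 (0.329–1.06) and 0.555 (0.359–0.820) times, which did not lie nearer to 1 in that library. The lowest ratio in the wild-type was that of Pax9 in Pax7 cells, with 1 UMI against 10.9 expected, 0.0919 (0.00233–0.512), beside 8 against 23.1 in the Usb1-null library, 0.347 (0.150–0.683). Pax9 cells held Pax7 at 0.203 (0.0246–0.732) and 0.286 (0.0928–0.667) times. Pax3 and Pax6, found together in 453 and 651 cells, were neither paired nor apart, since Pax3 cells held Pax6 at 1.02 (0.942–1.10) and 1.02 (0.954–1.08) times. Of those cells, 171 and 261 came from the spinal cord-like cluster 0, where both genes were above the erythroid-like level.

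The same ratio was taken for 70 genes known to act with Pax genes in these tissues, in 9 lists. Over both libraries, several of these ratios moved beyond counting error with the coarser clustering, such as Cnpy1 and En2 in Pax5 cells, which went from 4.37 to 9.30 and from 4.01 to 8.73, and Dmrt2 in Pax3 cells, which went from 4.13 to 12.3. In Pax5 cells the 4 highest were all genes of the midbrain-hindbrain boundary. Fgf8, the signal made by the boundary, was at 7.89 (6.69–9.26) and 4.39 (3.91–4.90) times the expected number, and Cnpy1 at 4.90 and 4.13 times. The engrailed genes En1 and En2, which pattern midbrain and hindbrain, were at 4.41 and 2.86 and at 3.99 and 4.02 times. Pax8 cells had the same 4 genes, between 1.96 and 3.03 times. Pax2 cells had Fgf8 at 2.27 and 3.38 times and Cnpy1 at 2.22 and 2.34 times, and also the eye field genes Rax, at 3.80 (2.21–6.08) and 2.68 (1.80–3.85) times, and Six6, at 2.83 (1.62–4.59) and 1.80 (0.932–3.15) times.

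In Pax3 cells the highest was Dmrt2, a factor of the dermomyotome, at 3.14 (2.65–3.69) in the wild-type and 5.10 (4.48–5.77) in the Usb1-null library. Tfap2b and Foxd3, genes of the neural crest, were at 1.54 and 1.77 and at 1.80 and 1.59 times. Pax7 cells had Lmx1b at 1.53 and 1.55, Tfap2b at 1.64 and 1.80, Cnpy1 at 1.84 and 1.74 and Fgf8 at 1.13 and 2.24 times. The last of these did not exceed 1 beyond counting error in the wild-type. Pax6 cells had Emx2, a gene of the dorsal forebrain, at 2.00 (1.55–2.53) and 1.94 (1.57–2.36) times and Dbx2, a marker of the intermediate spinal cord, at 1.65 and 2.02 times. Rax was at 1.80 and 1.18 times and the proneural gene Neurog2 at 1.17 and 1.40 times, and each of these 2 exceeded 1 beyond counting error in 1 library.

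In Pax9 cells the thyroid factor Foxe1 was at 3.45 (1.84–5.90) and 2.04 (1.19–3.27) times and Tbx1, a factor of the pharyngeal region, at 2.06 (1.41–2.89) and 2.06 (1.72–2.45) times. Foxc1 was at 1.52 and 1.41 times and Sall1 at 1.16 and 1.5 times. In Pax1 cells the somite gene Uncx was at 1.55 (0.944–2.39) and 1.63 (1.11–2.31) times, Foxc2 at 1.52 and 1.49, Meox2 at 1.27 and 1.43 and Fgf8 at 2.65 and 1.08. Pax1 cells were 159 and 174 in number, and beyond counting error the values exceeded 1 only for Uncx and Meox2 in the Usb1-null and for Fgf8 in the wild-type library.

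Between the libraries, 60 of the 70 genes had enough UMIs, and 8 were higher and 3 lower by 1.5-fold in the Usb1-null library, where 5.68% of all genes were higher and 3.64% lower. Their median log2 ratio was 0.01, the same as over all genes. The list of kidney precursor genes had 4 of 8 higher and a median of 0.51. Among them were Lhx1 at a ratio of 1.79 (1.45–2.24), the receptor gene Ret at 1.64 (1.38–1.95) and Sall1 at 1.67 (1.55–1.80). Osr1 and Emx2 of the same list stood at 0.687 (0.551–0.857) and 0.726 (0.604–0.873), so the list did not go one way. These ratios are over whole libraries and not over the kidney precursor. Sall1, for one, had a UMI in 5.63% and 15.1% of cells, while 0.732% and 0.845% of cells were intermediate mesoderm-like. The midbrain-hindbrain boundary list had 2 of 8 higher, En1 at 1.63 (1.37–1.95) and En2 at 1.83 (1.42–2.38), beside Fgf8 at 1.12 and Cnpy1 at 1.10.

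The neural crest list had Foxd3 higher, at 1.78 (1.24–2.60), and Sox10 and Tfap2b lower, at 0.619 (0.551–0.695) and 0.649 (0.607–0.695). Hhex of the pharyngeal and thyroid list was higher, at 1.71 (1.33–2.22), and Six6 of the eye and forebrain list lower, at 0.444 (0.313–0.628). The lists of the sclerotome and somite (7 counted), of the dermomyotome and muscle (5), of the neural tube's dorsoventral pattern (10) and of ear and placode (5) had none past 1.5-fold with 1 CPM added. Without that addition 3 of their genes with few UMIs were, Dbx2 at 0.585 (0.408–0.836), Hmx3 at 0.325 (0.111–0.862) and Myf5 at 1.65 (0.847–3.42), and so was Gbx2 of the boundary list, at 1.75. The myogenic factors of the list had few UMIs over whole libraries, with 13 and 33 of Myf5, 1 and 0 of Myod1 and 3 and 3 of Myog, beside 1638 and 1877 UMIs of Pax3 in the dermomyotome and myotome-like cluster.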

How the data were processed

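The authors deposited UMI counts per gene and barcode for each library, with no normalisation. Per the file headers they were made with Cell Ranger 6.1.2, whereas the labels name version 2.1.1 and the build mm10. The labels call the molecule nuclear RNA, but the protocol describes a suspension of single cells. Cells with 200 to 6000 detected genes and under 30% mitochondrial UMIs were kept, which left 21732106 UMIs in the wild-type and 33383886 in the Usb1-null library.

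Here, 2000 variable genes without the Pax genes, 30 principal components, a NumPy version of Harmony and Leiden clustering (Scanpy 1.11.5, leidenalg 0.10.2, resolution 1.2) gave 29 clusters. A cluster was named from at least 3 markers raised 2-fold, a rule set after the clusters were seen; ties kept a number, and so did cluster 26, which mature liver genes led. These names were rebuilt and may differ from those of the study. Doublets called by Scrublet were kept and removed in an alternative. Members, markers and gene lists were chosen with earlier results of these data known. The named genes were all 8 members, the 3 genes most like each in both libraries, up to 4 list genes with the highest observed over expected ratio and at least 10 UMIs per library, and list genes past 1.5-fold. Ratios carry exact conditional binomial intervals, levels exact Poisson and shares Clopper-Pearson intervals (SciPy 1.17.1). Genes needed 20 UMIs between libraries. On counts simulated for the comparison between libraries, over 18921 genes, 95.7% of intervals held the true ratio. Sequences were aligned with Biopython 1.88. Subtraction of the erythroid-like level was chosen after seeing the data. Values of some list genes are not reported here.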

Additional observations from a re-analysis of the deposited data

Results flagged for a closer look

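Pax9 was higher in the Usb1-null library in cluster 18, at a ratio of 3.52 (1.23–13.9) from 4 and 27 UMIs, and lower in the sclerotome-like cluster 5, at 0.680 (0.509–0.908). Its interval lay above 1 in the first and below 1 in the second, and the difference itself was not tested. In wild-type cells of cluster 18 the level was 8.73 CPM, below the 21.4 CPM of the erythroid-like cells. Pax3 likewise was higher in cluster 24, at 2.40 (1.31–4.69), and lower in the primitive erythroid-like cluster, at 0.424 (0.246–0.698), and this difference was not tested either. The wild-type level in cluster 24 was 63.9 CPM, below the 117 CPM of the erythroid-like cells, and the erythroid-like cells are themselves the measure of background used here.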

How the results depend on the processing

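No paired analysis was possible because each genotype was 1 library, and for the same reason no replicate could be left out. Of 48 log2 ratios between libraries under 6 alternatives, 46 stayed within the counting interval. With at least 1000 detected genes per cell, Pax3 moved to -0.25 and Pax6 to -0.07. Pax8 was past 1.5-fold under all 6. The leading cluster held over 50% of the same cells for 5 genes with a coarser clustering of 18 clusters and for 5 with doublets removed, and for 6 each in the other 3 clusterings. Of 40 levels in the leading cluster under these 5 clusterings, 26 moved, most of all Pax2 from 1187 to between 286 and 297 CPM and Pax8 from 771 to between 175 and 184 CPM with coarser clusters, without Harmony and with doublets removed. In these 3 the intermediate mesoderm-like cluster had under 100 cells in at least 1 library and was not ranked. With the coarser clustering 6.35% of gene and cluster pairs were lower by 1.5-fold instead of 12.0%. Over both libraries, ratios of observed to expected UMIs became 2.93 for Pax9 in Pax1 cells, 3.51 for Pax5 in Pax8 cells, 2.71 for Pax3 in Pax7 cells and 0.271 for Pax6 in Pax5 cells with that clustering. Pax3 in Pax6 cells, at 1.04, fell to 0.999 with doublets removed and 0.877 with coarser clusters. After subtraction of the erythroid-like level, 2 pairs were lower by 1.5-fold instead of 6. Thinned shares rose with depth, except that of Pax8 cells with Pax2. In the Usb1-null library that share was 23.0% at 500 UMIs per cell and 21.4% at the main depth. In the wild-type it was 20.6% at the main depth and 20.5% at 1500 UMIs per cell. Of 56 thinned shares, 19 moved, 18 of them at 500 or 1500 UMIs per cell. Depth and background limit all values near the erythroid-like level.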
